A study of Homo sapiens with 30 samples.

Results

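The genes for 5 WNT ligands and 4 secreted WNT inhibitors were examined in open chromatin maps of human stem cells on their way to neural tissue. The ligands were WNT1, WNT3A, WNT5A, WNT7B and WNT8B, and the inhibitors were SFRP1, SFRP2, DKK1 and FRZB. These 9 of 20037 protein-coding genes were taken by name because the culture media differed in their WNT inhibitors. Each gene was measured over its GRCh38 body with 50 kb on each side, and every peak of the 10 deposited lists that touched this window was counted. The peaks in the 9 windows merged into 325 regions, out of 493444 regions over the whole genome. A region is called open in a list where that list has a peak of which at least 1 bp lies in it. Peaks of different lists in 1 region can lie apart, joined by a peak of another list.

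The maps came from OmniATAC-seq, in which the Tn5 transposase cuts accessible DNA and leaves sequencing adapters there, with 50000 cells per library. All 10 groups were wild-type H1, an established human embryonic stem cell line, with 3 libraries each. Undifferentiated cells (hPSC) were taken on day 0 in mTeSR Plus. All later groups passed through a definitive ectoderm stage (DE, day 1), whose CDM2 medium held C59 at 1 uM together with the TGF-beta receptor inhibitor A8301, the MEK inhibitor Trametinib and the BMP receptor inhibitor LDN193189. Anterior neural ectoderm (aNE, day 2) then received 1 uM C59, A8301, LDN193189 and Thiazovivin. Posterior neural ectoderm (pNE, day 2) received A8301, LDN193189, Thiazovivin, 50 nM TTNPB, 20 ng/mL FGF2 and 1 uM XAV939. Both were carried to day 4 in a telencephalon medium (aNE_T and pNE_T), a midbrain medium (aNE_M and pNE_M) or a hindbrain medium (aNE_H and pNE_H). The forebrain medium of the labels, taken here as that of aNE_T and pNE_T, held 1 uM XAV939, LDN193189 and 20 ng/mL FGF2 on day 3. The composition of the midbrain and hindbrain media is not given in the sources used here. Cells grown past day 2 were plated at 75000 per square cm in the anterior and 150000 per square cm in the posterior protocol. All cells come from 1 line.

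WNT proteins are secreted lipid-modified signals that bind Frizzled receptors, with LRP co-receptors in the branch that stabilises beta-catenin. In the early brain, low WNT activity goes with forebrain identity, and rising activity goes with midbrain and hindbrain identity. SFRP1, SFRP2 and FRZB resemble the Frizzled binding domain and capture WNT proteins outside the cell, while DKK1 binds the LRP co-receptors. C59 blocks Porcupine, the enzyme that attaches the lipid a WNT protein needs for secretion. XAV939 blocks the tankyrases and so stabilises AXIN, which keeps beta-catenin low inside the cell. Both groups of day 2 cells were therefore grown with a WNT inhibitor, acting at different steps.

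The promoters of WNT8B, WNT3A and DKK1 are shown because they represent the 3 kinds of start seen in these lists: open in some lists, free of peaks in every list, and open in all. Each line gives the 250 bases before the transcription start in RefSeq GRCh38.p14, 5′ to 3′ on the plus strand, which is the strand of all 3 genes. Capitals mark CpG dinucleotides. WNT8B is chr10:100462759-100463008 with 3 CpG, WNT3A is chr1:228006748-228006997 with 38, and DKK1 is chr10:52314031-52314280 with 18.
WNT8B: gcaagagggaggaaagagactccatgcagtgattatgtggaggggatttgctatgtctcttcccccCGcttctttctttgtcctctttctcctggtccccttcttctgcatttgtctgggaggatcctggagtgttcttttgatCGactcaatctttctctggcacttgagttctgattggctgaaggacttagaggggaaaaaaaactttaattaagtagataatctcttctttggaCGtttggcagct
WNT3A: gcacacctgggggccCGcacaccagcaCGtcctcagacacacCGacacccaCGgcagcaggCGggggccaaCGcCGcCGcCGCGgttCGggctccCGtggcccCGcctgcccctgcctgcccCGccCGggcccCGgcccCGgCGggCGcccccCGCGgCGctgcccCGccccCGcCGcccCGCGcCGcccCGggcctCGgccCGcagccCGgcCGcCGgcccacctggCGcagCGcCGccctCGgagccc
DKK1: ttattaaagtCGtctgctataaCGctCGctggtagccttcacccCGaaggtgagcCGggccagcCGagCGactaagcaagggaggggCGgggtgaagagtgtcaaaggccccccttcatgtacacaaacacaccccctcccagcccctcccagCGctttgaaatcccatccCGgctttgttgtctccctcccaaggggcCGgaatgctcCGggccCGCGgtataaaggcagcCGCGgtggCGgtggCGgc
Promoters of 300 bases, from 250 before to 50 after the start, were matched for 7 of the 9 genes with 8 entries, WNT5A having 2. WNT8B had 4 CpG in its 300 bases, and 14.5% of 22199 protein-coding promoters had fewer. WNT3A had 49, and 98.0% of promoters had fewer. The other entries lay between 15 in SFRP2 and 34 in WNT1, around a median of 21 over all promoters. GC content ran from 45.7% in WNT8B to 86% in WNT3A. Of the other 6 entries, those of WNT1, SFRP2, DKK1, FRZB and the upstream start of WNT5A were overlapped by peaks in all 10 lists, as were 67.8% of promoters in general. The downstream WNT5A start was free of peaks in every list, as WNT3A was, a state shared by 19.0% of promoters. The TCF/LEF core CTTTGAT, the site type through which beta-catenin acts, was searched on both strands and was in 0 of the 8 entries, against 1.98% of all promoters. The nuclear receptor half-site AGGTCA was also in 0 of 8, against 11.9%. The OTX core TAATCC was in 1, the SFRP2 promoter, on the other strand at position -80 from the start, against 5.47%.

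The deposited data are positions of peaks with no height, 1 list per group, so no value has a replicate error and no test was possible. A difference therefore compares lists, and how deeply each library was read is unknown. Over the 24 main chromosomes the shortest list was aNE, with 167792 peaks covering 75.5 Mb, and the longest was pNE_H, with 313095 peaks covering 129 Mb. For comparisons between lists, bases inside peaks in a window plus 500 bp were divided by the Mb that the whole list covers. On this scale the median of 5 pluripotency genes was highest in hPSC (86.2 bp per Mb) and lowest in pNE_T (43.4). The median of 5 posterior genes was 131 to 158 in the posterior-derived day 4 lists and 95.5 to 105 in the anterior-derived ones, but it was also 138 in hPSC. That of 5 anterior genes was 91.9 to 120 in the anterior-derived and 71.3 to 94.7 in the posterior-derived lists. Of 5 neural genes it was 94.7 to 132, and of 9 genes of other cell types 75.3 to 101, with no list near 0. Origin on day 4 moved with plating density and with the narrowest peak of a list, 122 to 126 bp in the anterior-derived and 109 to 115 bp in the posterior-derived lists, so these cannot be told apart.

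All 9 windows held peaks in every list. Together they held 144 peaks in aNE, the fewest, and 205 in pNE_H, the most, with 161 in pNE. The covered bases were 72456 bp in aNE, 77094 bp in pNE and 102956 bp in pNE_H. Scaled to list size the sum was highest in aNE, at 960 bp per Mb, and lowest in pNE_H, at 797 bp per Mb. Values over the 10 lists are given below in the order hPSC, DE, aNE, pNE, aNE_T, aNE_M, aNE_H, pNE_T, pNE_M, pNE_H.

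**Figure D1:**
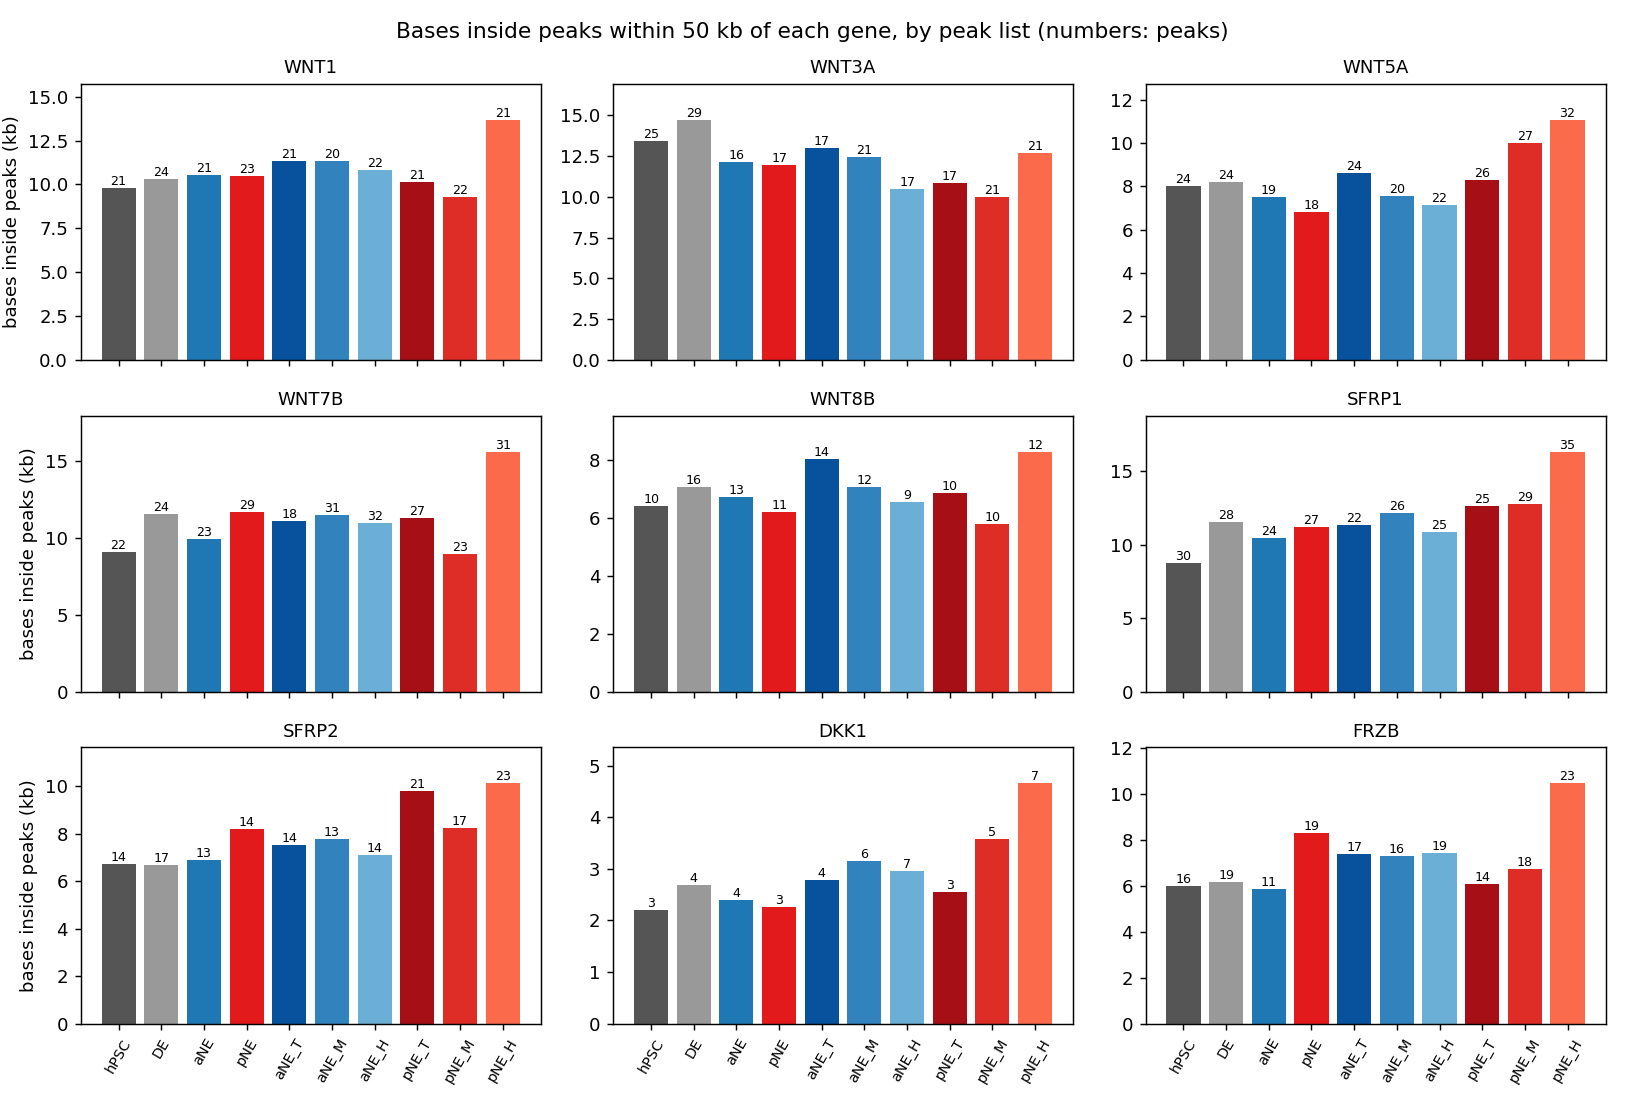
Bases inside peaks (kb, vertical axis) within 50 kb of each of the 9 genes in the 10 peak lists (horizontal axis), with the number of peaks printed above each bar. The pNE_H bar is the highest for 8 of the genes, and for WNT3A the highest is DE at 14728 bp. There is 1 list per group, so the bars carry no error.

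**Figure D2:**
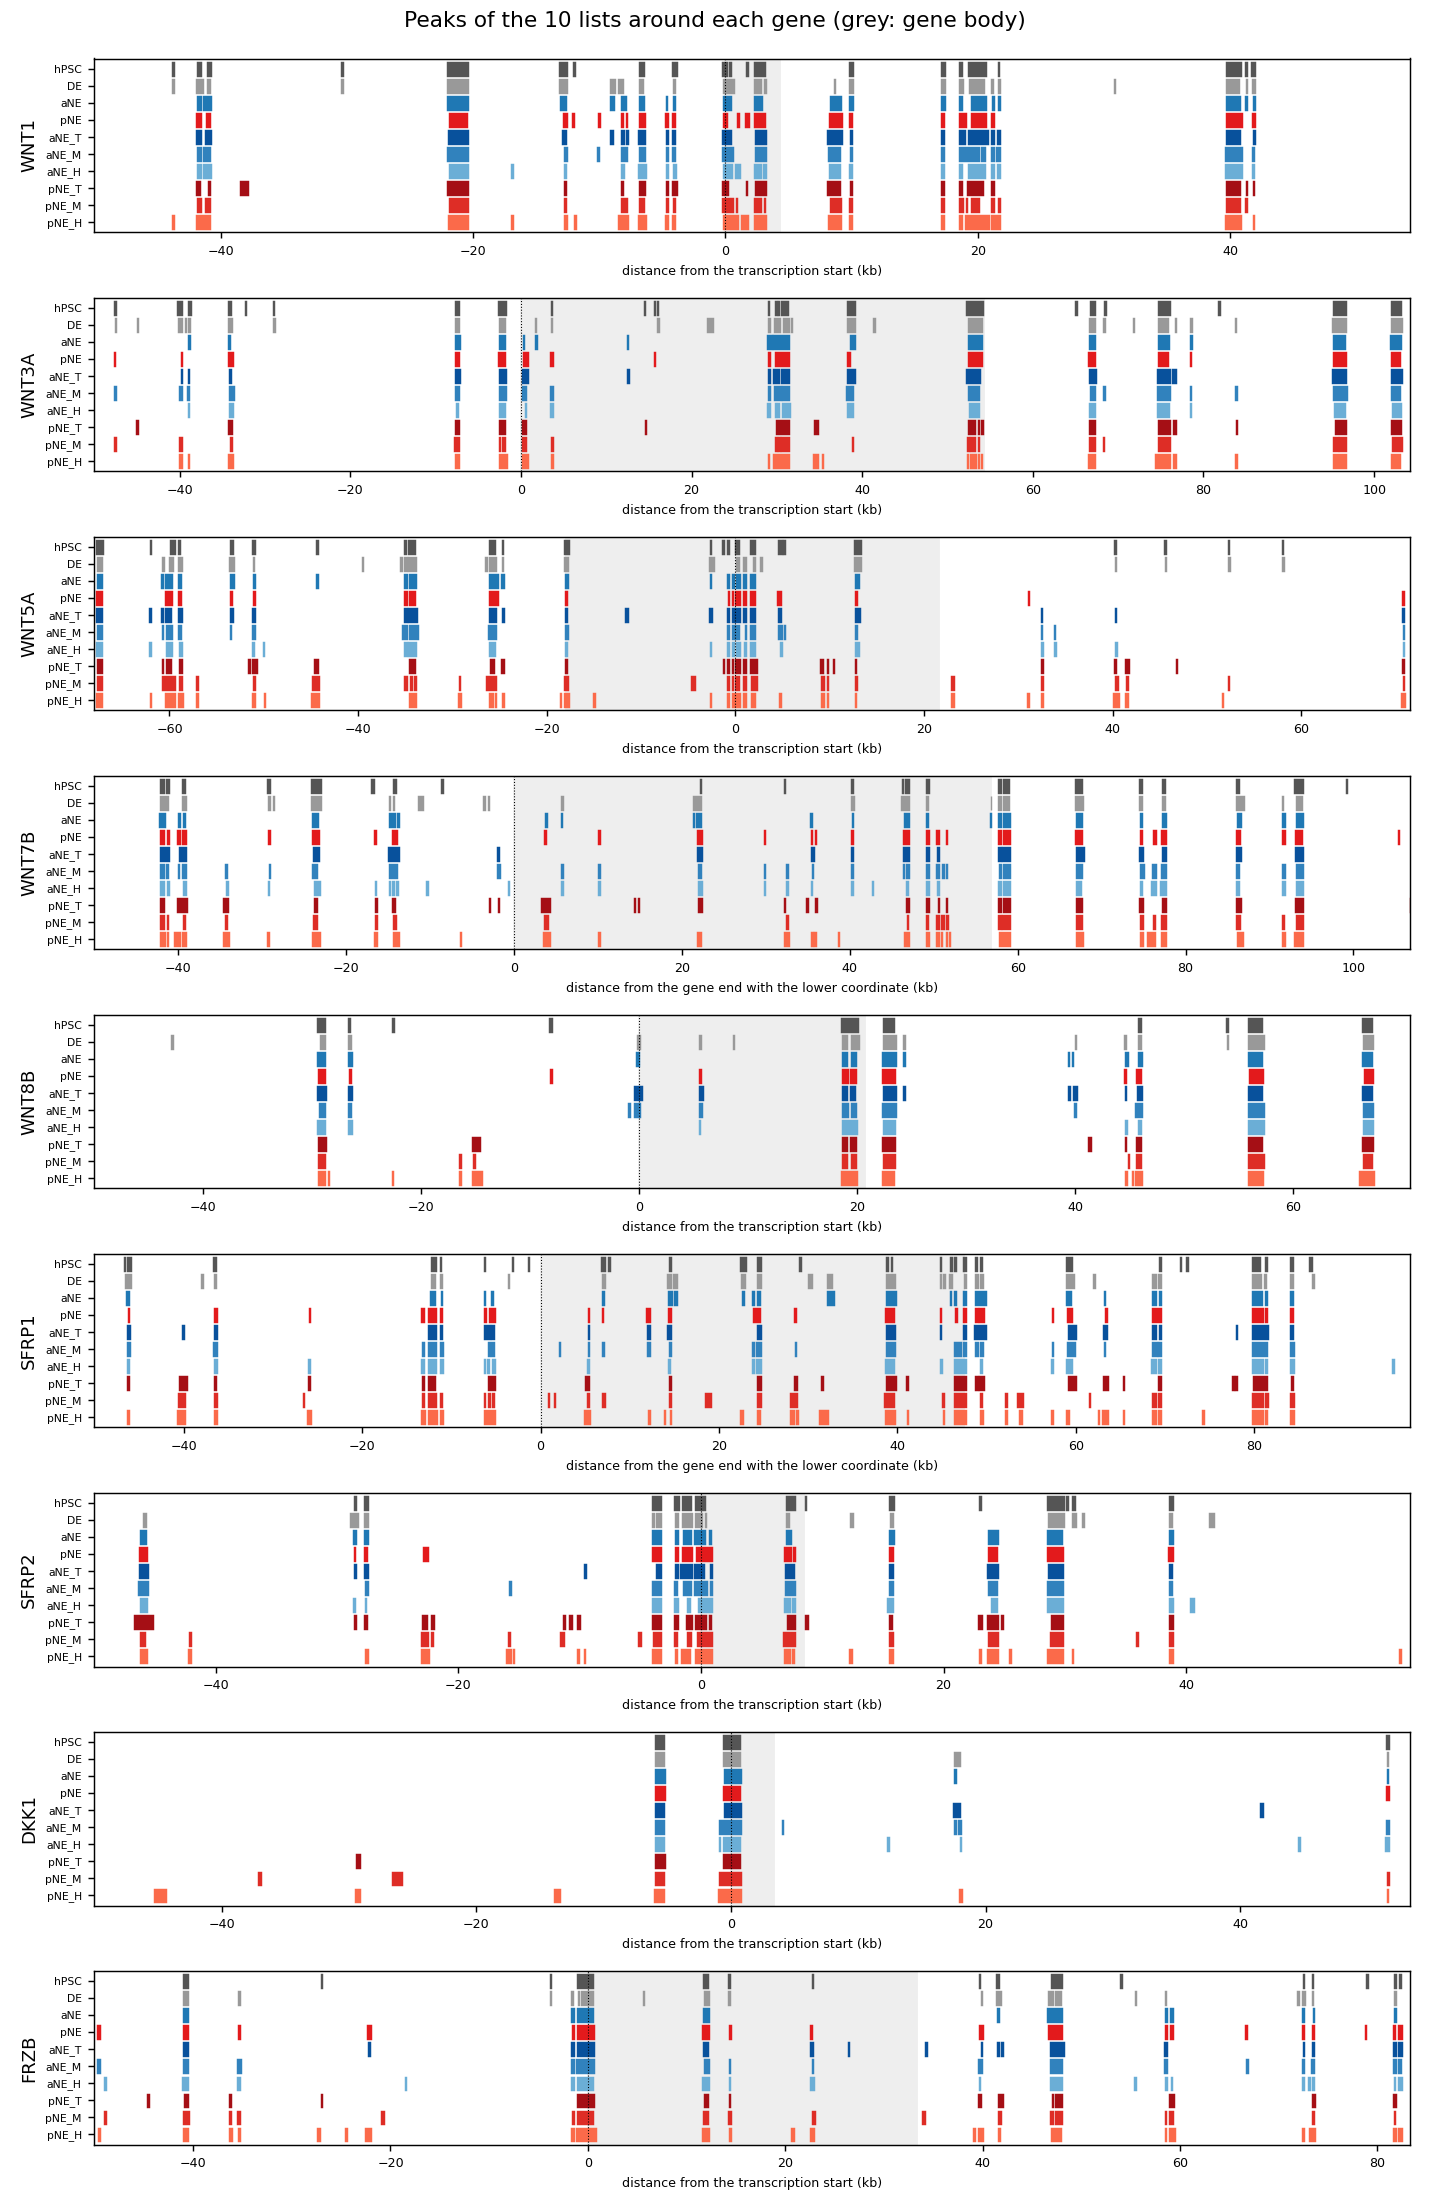
Each bar is a peak, drawn to scale by its distance in kb from the transcription start (or, for WNT7B and SFRP1, from the gene end with the lower coordinate), with 1 row per list and the gene body in grey. Most wide peaks stand in all 10 rows, the region over the WNT8B start has peaks in 4 rows only, and the WNT3A start has no peak on it.

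WNT8B is a ligand of the dorsal and medial forebrain. Of the 7 genes with a matched promoter, only it had 300 bases that peaks overlapped in some lists and not in others. Of all 22199 protein-coding promoters, 67.8% were open in all 10 lists and 19.0% in no list, and the rest had such a mixed state. A mixed state by itself is thus not particular to WNT8B. Its gene lies on chromosome 10 from 100463009 to 100483744 on the plus strand. The region over the start, from 100462529 to 100463270, held 275 bp of peaks in DE, 308 bp in aNE, 739 bp in aNE_T and 523 bp in aNE_M. The aNE peak ended at 100463004, so the start base itself lay in peaks of DE, aNE_T and aNE_M. The region was closed in hPSC, pNE, aNE_H and all 3 posterior-derived day 4 lists. In bulk samples such as these, fewer cells with an open site and less access per cell cannot be told apart. Open promoters in exactly these 4 lists were found for 3 of 22199 entries (0.0135%), those of LIFR, TP53TG5 and WNT8B. The pattern was taken from WNT8B after its values were seen, so the share does not measure how unusual that promoter is. With hPSC and DE left free, the pattern was found for 12 entries (0.0541%). The same 4 lists held the region over the start open when every list was reduced to its widest 167792 peaks. With the widest 50% of each list it was open in 3 lists (not in aNE), and when peaks had to cover at least 50% of the region it was open in 2, aNE_T and aNE_M.

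Other regions in the WNT8B window split the lists in similar and in opposite ways. A region inside the gene, 5.63 kb past the start, was open in DE (200 bp), pNE (198 bp), aNE_T (405 bp), aNE_M (221 bp) and aNE_H (126 bp) and in no posterior-derived day 4 list. With the widest 50% of peaks it was open in aNE_T alone. A region at -26.6 kb from the start held 124 to 353 bp in hPSC, DE, aNE, pNE and the anterior-derived day 4 lists and 0 in the posterior-derived ones. Within the neighbouring gene SEC31B, 39.9 kb past the WNT8B start, a region was open in the same 4 lists as that over the start. The SEC31B region held 125, 125, 396 and 158 bp in DE, aNE, aNE_T and aNE_M. The opposite pattern stood at -14.9 kb from the start, from 100447621 to 100448575, with 773, 173 and 915 bp in pNE_T, pNE_M and pNE_H and 0 elsewhere. With the widest 50% of peaks, and with 50% coverage, it was open in 2 lists, pNE_T and pNE_H. No other gene is annotated at that region. The whole window hid this, with covered bases of 6418, 7059, 6727, 6218, 8036, 7088, 6566, 6876, 5808 and 8300 bp. Of its 24 regions 6 were open in all 10 lists, among them wide ones at SEC31B and NDUFB8, and these made up most of the covered bases.

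WNT1, the ligand of the midbrain-hindbrain boundary, had an open start in every list. The gene lies on chromosome 12 from 48978322 to 48982620 on the plus strand. Over the start, from 48978065 to 48979499, the lists held 528, 904, 671, 492, 698, 848, 1157, 418, 944 and 1261 bp. The region that changed was 3.77 kb past the far end of the gene, from 48986391 to 48987576. It held 0 bp in hPSC, 124 bp in DE, 925 bp in aNE and 999 bp in pNE, and between 839 and 1168 bp in the 6 day 4 lists. Each day 2 and day 4 value lay above those of hPSC and DE, and aNE and pNE were near each other. This region was named after its values were seen, so that gap came with the choice. How many other regions show such a gap was not counted. A smaller region at -4.65 kb from the start was closed in hPSC and DE and open in the 8 later lists, with 142 bp in aNE, 203 bp in pNE and 154 to 227 bp on day 4. With the widest 50% of each list it was open in none. The widest region open in only 1 of aNE and pNE began inside the gene at 48979527, with 312 bp in pNE, 131 bp in hPSC, 146 bp in pNE_T and 587 bp in pNE_H. The window also holds 6 other protein-coding genes, including WNT10B, and its covered bases were 9803, 10324, 10567, 10487, 11310, 11340, 10823, 10114, 9296 and 13696 bp.

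WNT3A, a ligand of the beta-catenin branch made in the dorsal midline, showed a merged region just past its start with peaks only from day 2 onward. The gene lies on chromosome 1 from 228006998 to 228061271 on the plus strand. The region from 228007094 to 228007867 lies inside the gene, and no list had a peak on the start itself. It held 0 bp in hPSC and DE, 157 bp in aNE and 644 bp in pNE. The day 4 values were 626 bp in aNE_T, 445 bp in aNE_M and 179 bp in aNE_H, and in the posterior-derived lists 449 bp (pNE_T), 534 bp (pNE_M) and 604 bp (pNE_H). The low values were those of aNE and aNE_H, which were also the lists that lost it with the widest 50% of peaks. Their peaks, 228007216 to 228007372 in aNE and 228007424 to 228007602 in aNE_H, shared no base. Wider peaks of other lists joined them, so aNE and aNE_H were not open at the same site. Over the window the list with the most peaks was DE with 29, and aNE had 16 and pNE 17. Its covered bases were 13400, 14728, 12142, 11973, 13001, 12443, 10474, 10844, 9958 and 12693 bp, so hPSC and DE both held more than either day 2 list. WNT5A was the other gene for which this was so. Scaled to list size, it no longer held for aNE. WNT3A had 167 bp per Mb in aNE, 164 in hPSC and 162 in DE, and WNT5A had 106, 100 and 92.5. In pNE the scaled values stayed lower, at 145 for WNT3A and 84.9 for WNT5A. Of the 37 regions of WNT3A, 10 were open in hPSC or DE and in no later list. Over all regions near protein-coding genes this share was 14.0%.

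WNT5A, a ligand that acts largely outside the beta-catenin branch, held 4 of the 8 regions that were open in all posterior-derived and no anterior-derived day 4 lists. These were 4 of its 47 regions, where 2.08% of all regions near protein-coding genes had this pattern. The gene lies on chromosome 3 from 55465715 to 55505263 on the minus strand. Inside it, a region from 55477899 to 55478290 held 309, 256 and 363 bp in pNE_T, pNE_M and pNE_H, and one from 55477433 to 55477635 held 159, 194 and 156 bp. A region 19.7 kb past the gene, at 55445515 to 55445989, held 441, 182 and 345 bp. All 3 were closed in every other list. The widest of the 4, at 55531447 to 55532276 in the neighbouring gene ERC2, held 408, 739 and 830 bp and was also open in hPSC (249 bp) and aNE (256 bp). With the widest 50% of peaks it was open in pNE_T, pNE_M and pNE_H alone. Where peaks had to cover 50% of it, it was open in pNE_M and pNE_H. In the region over the upstream start, 55487306, the lists held between 390 bp in DE and 879 bp in pNE_H. The peaks of DE, aNE and aNE_H in this region did not cover the start base itself. The window had 24, 24, 19, 18, 24, 20, 22, 26, 27 and 32 peaks, with the 3 posterior-derived lists at the top. These counts are not scaled to list size, and pNE_H was the longest list, with 313095 peaks. The covered bases of the window were 8012, 8191, 7502, 6820, 8597, 7542, 7149, 8292, 9974 and 11073 bp. The ranges of the 2 origins overlapped there, because aNE_T lay above pNE_T. Scaled, they overlapped as well, with 88.1 to 104 bp per Mb in the anterior-derived and 89.6 to 124 in the posterior-derived lists.

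WNT7B, a ligand of the forebrain, showed 1 region of each kind inside the gene, which lies on chromosome 22 from 45920366 to 45977162. The region from 45960448 to 45960820 held 183, 260, 154, 139, 245, 326 and 314 bp in the lists up to aNE_H and 0 in pNE_T, pNE_M and pNE_H. With the widest 50% of peaks it was open in 2 lists, aNE_M and aNE_H. The region from 45923615 to 45924603 held 980, 486 and 781 bp in pNE_T, pNE_M and pNE_H, 325 bp in aNE and 307 bp in pNE, and 0 in the other 5. Where peaks had to cover 50% of it, it was open in 2 lists, pNE_T and pNE_H. One more region, 18.6 kb outside the gene at 45995746 to 45996846, had the same state in both origins on day 4. It was closed in both telencephalon lists and open in aNE_M (443 bp), aNE_H (534 bp), pNE_M (243 bp) and pNE_H (1032 bp). On day 2 it was open in pNE (367 bp) and closed in aNE. Where peaks had to cover 50% of a region, only pNE_H held it open. The covered bases of the window were 9057, 11548, 9934, 11665, 11135, 11504, 11007, 11274, 8945 and 15626 bp. In the anterior-derived lists the number of peaks was 18 in telencephalon, 31 in midbrain and 32 in hindbrain medium, while covered bases differed by less than 1.5-fold.

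**Figure D3:**
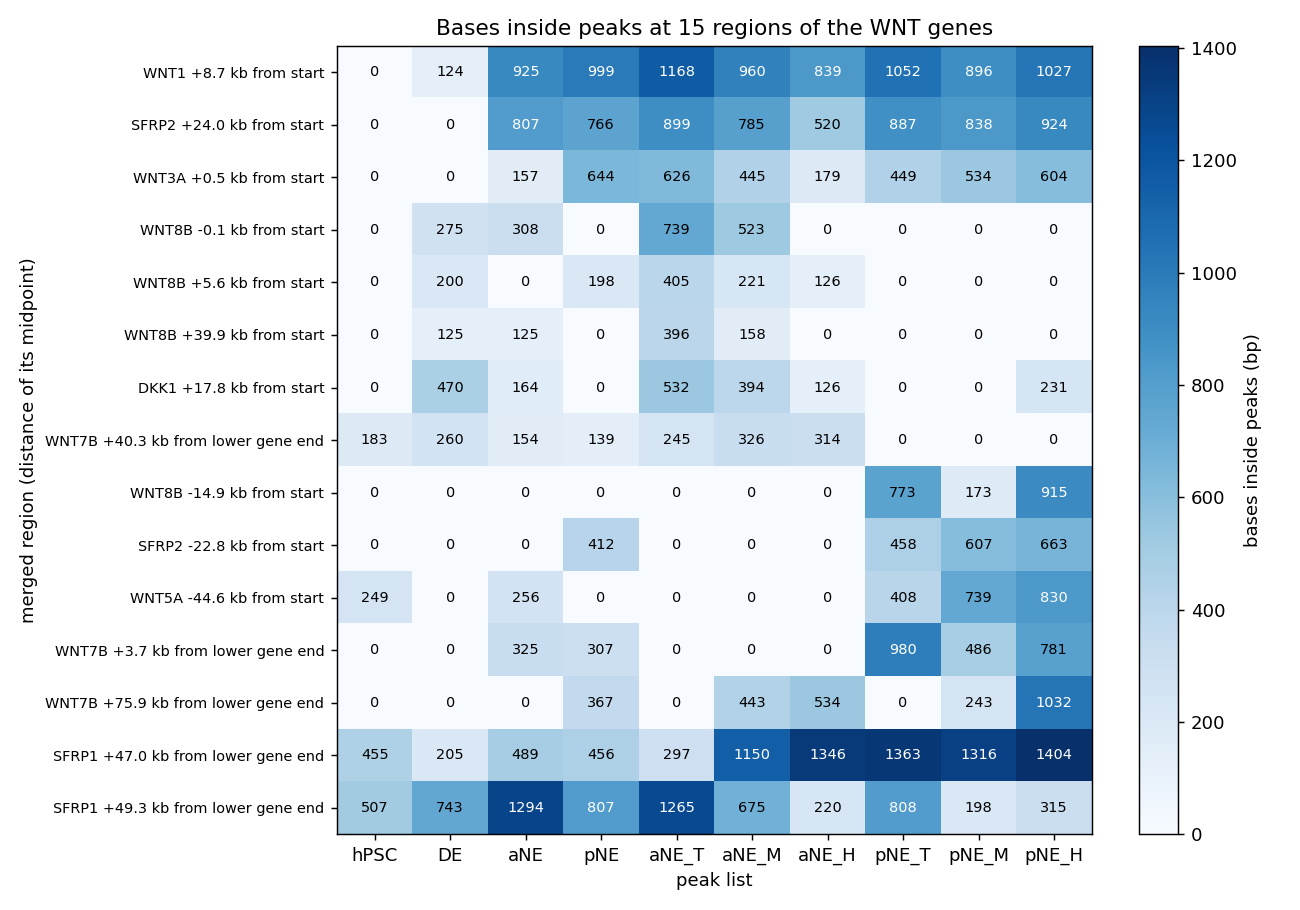
Bases inside peaks (bp, shading and printed number) at 15 merged regions (vertical axis, with the distance of the midpoint from the start or, for WNT7B and SFRP1, from the gene end with the lower coordinate) in the 10 lists (horizontal axis). WNT1 and SFRP2 have rows of at least 520 bp from aNE onward, WNT3A has values from 157 to 644 bp there, and WNT8B, SFRP2, WNT5A and WNT7B have rows with 0 in the anterior-derived day 4 lists.

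Among the inhibitors, SFRP2 had the clearest region that was closed before and open after the neural step. The gene, whose product binds WNT proteins and is abundant in early neural tissue, lies on chromosome 4 from 153780591 to 153789083 on the minus strand. A region 15.1 kb past its far end, at 153764586 to 153765521, held 0 bp in hPSC and DE, 807 bp in aNE and 766 bp in pNE. The day 4 values were 899 bp in aNE_T, 785 bp in aNE_M and 520 bp in aNE_H, and from the posterior origin 887 bp (pNE_T), 838 bp (pNE_M) and 924 bp (pNE_H). The same 8 lists held it open with shorter lists and with 50% coverage. A second region, at -22.8 kb from the start, from 153811541 to 153812203, was open in pNE (412 bp), pNE_T (458 bp), pNE_M (607 bp) and pNE_H (663 bp) and in no other list, again under each of those 3 alternatives. It was thus open in the posterior list of day 2 and in all lists that came from it. Of all 34 regions of SFRP2, it was the only one that pNE had and aNE lacked, and 0 were the other way round. Over all regions near protein-coding genes, 12.2% and 5.93% had these patterns. The start was open in every list, with 839, 676, 1035, 1343, 981, 1197, 1151, 1125, 1228 and 1441 bp. The window held 6714, 6688, 6895, 8201, 7503, 7760, 7099, 9792, 8232 and 10116 bp.

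SFRP1, the other secreted Frizzled-related inhibitor of the early neural plate, differed at 2 neighbouring regions that were open in all 10 lists. The gene lies on chromosome 8 from 41261962 to 41309473. The region over its end with the higher coordinate, 41308250 to 41309688, held 205 to 489 bp in hPSC, DE, aNE, pNE and aNE_T. It held 1150, 1346, 1363, 1316 and 1404 bp in aNE_M, aNE_H, pNE_T, pNE_M and pNE_H, so aNE_T was apart from the other day 4 lists. The next region, 1.11 kb outside the gene, held 1294 bp in aNE, 1265 bp in aNE_T and 198 to 808 bp in the other 8 lists. A region 39.6 kb outside the gene held 901, 834 and 928 bp in pNE_T, pNE_M and pNE_H, 223 bp in aNE_T and 0 elsewhere. These 3 regions were named after their values were seen. The widest region open in only 1 of the day 2 lists, at 41293146 to 41294804, held 729 bp in aNE, 502 bp in DE, 234 bp in pNE_T and 1072 bp in pNE_H. The pNE_T peak, 41293421 to 41293654, shared no base with the peaks of DE and aNE, and the pNE_H peak joined them. SFRP1 had the most regions, 57, of which 23 were open in exactly 1 list, where 32.4% of all regions near protein-coding genes were. Its covered bases were 8772, 11559, 10454, 11186, 11363, 12147, 10861, 12616, 12766 and 16354 bp.

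DKK1, the antagonist of LRP co-receptors that is needed for head formation, had the fewest peaks. The gene lies on chromosome 10 from 52314281 to 52317657 on the plus strand. Its start was open in all lists, with 1350, 1364, 1321, 1334, 1352, 1733, 1532, 1402, 1727 and 1755 bp, and a region at -5.62 kb from the start was open in all lists as well. These 2 regions held most of the covered bases, which were 2204, 2692, 2397, 2268, 2777, 3156, 2960, 2551, 3568 and 4654 bp. Between -44.8 kb and -13.7 kb from the start there were 5 regions, all open only in posterior-derived day 4 lists. Of these, 4 were open in 1 list each and 1 was open in pNE_T (371 bp) and pNE_H (367 bp). The window also held 4 regions open only in anterior-derived day 4 lists. These are 5 and 4 of 13 regions, where 21.5% and 5.19% of all regions near protein-coding genes had these patterns. A region past the gene, 17.8 kb from the start at 52331750 to 52332406, was open in DE (470 bp), aNE (164 bp), aNE_T (532 bp), aNE_M (394 bp), aNE_H (126 bp) and pNE_H (231 bp) and closed in hPSC, pNE, pNE_T and pNE_M. The widest 50% of the peaks kept it in DE and aNE_T. The aNE peak in it, 52331761 to 52331924, shared no base with the peaks of aNE_H and pNE_H.

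FRZB, another Frizzled-related inhibitor, had the largest difference in the number of peaks between the day 2 lists, as counted without scaling. The gene lies on chromosome 2 from 182833275 to 182866637 on the minus strand. Its window held 11 peaks in aNE and 19 in pNE, which was within 1.5-fold after scaling to the number of peaks in each list. Of its 38 regions, pNE had 9 that aNE lacked, with 1 the other way. Over all regions near protein-coding genes, 12.2% and 5.93% had these patterns. The region open in aNE and not in pNE, at 182824551 to 182825283, held 228 bp in aNE. It was also open in hPSC (336 bp), DE (423 bp), aNE_T (418 bp) and the posterior-derived day 4 lists pNE_T (508 bp), pNE_M (333 bp) and pNE_H (169 bp). It was closed in pNE, aNE_M and aNE_H. The covered bases were 6001, 6165, 5838, 8276, 7381, 7265, 7426, 6083, 6705 and 10444 bp. The start was open in all 10 lists, with 1344 bp in DE at the low end and 2029 bp in pNE_H at the high end. A small region at -36.2 kb from the start held 143, 188 and 300 bp in pNE_T, pNE_M and pNE_H and 0 elsewhere.

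Across the 325 regions, the shares of each pattern lay close to those of 357053 regions within 50 kb of any protein-coding gene. Regions open in all 10 lists were 74 of the 325 (22.8%, against 18.5% of all such regions). Those open in exactly 1 list were 99 (30.5%, against 32.4%), of which 23 were in DE, 21 in pNE_H, 15 in hPSC, 1 in pNE and 0 in aNE. Open in hPSC or DE and in no later list were 45 (13.8%, against 14.0%). Between the day 2 lists, 21 regions were open only on the aNE side (6.46%, against 5.93%) and 39 only on the pNE side (12.0%, against 12.2%). On day 4, 64 were open in posterior-derived lists only (19.7%, against 21.5%) and 16 in anterior-derived lists only (4.92%, against 5.19%). All 3 anterior-derived and no posterior-derived list held 3 regions, 2 at WNT8B and 1 at WNT7B (0.923%, against 0.670%). With the widest 167792 peaks of each list these 3 were 5, and with the widest 50% they were 1. The reverse held for 8 (2.46%, against 2.08%), and for 7 and 6 with these shorter lists. The pattern of opening on day 2, open in aNE, pNE and all 6 day 4 lists and closed in hPSC and DE, was found for 3 regions, 1 each at WNT1, WNT3A and SFRP2 (0.923%, against 0.326%). These shares rest on few regions and have no replicate error. At WNT3A the peaks of aNE and aNE_H shared no base. With each list at its widest 167792 peaks, the regions open on 1 side of aNE and pNE were 29 for aNE and 26 for pNE, so the larger side changed. With the widest 50% they were 10 for aNE and 21 for pNE.

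**Figure D4:**
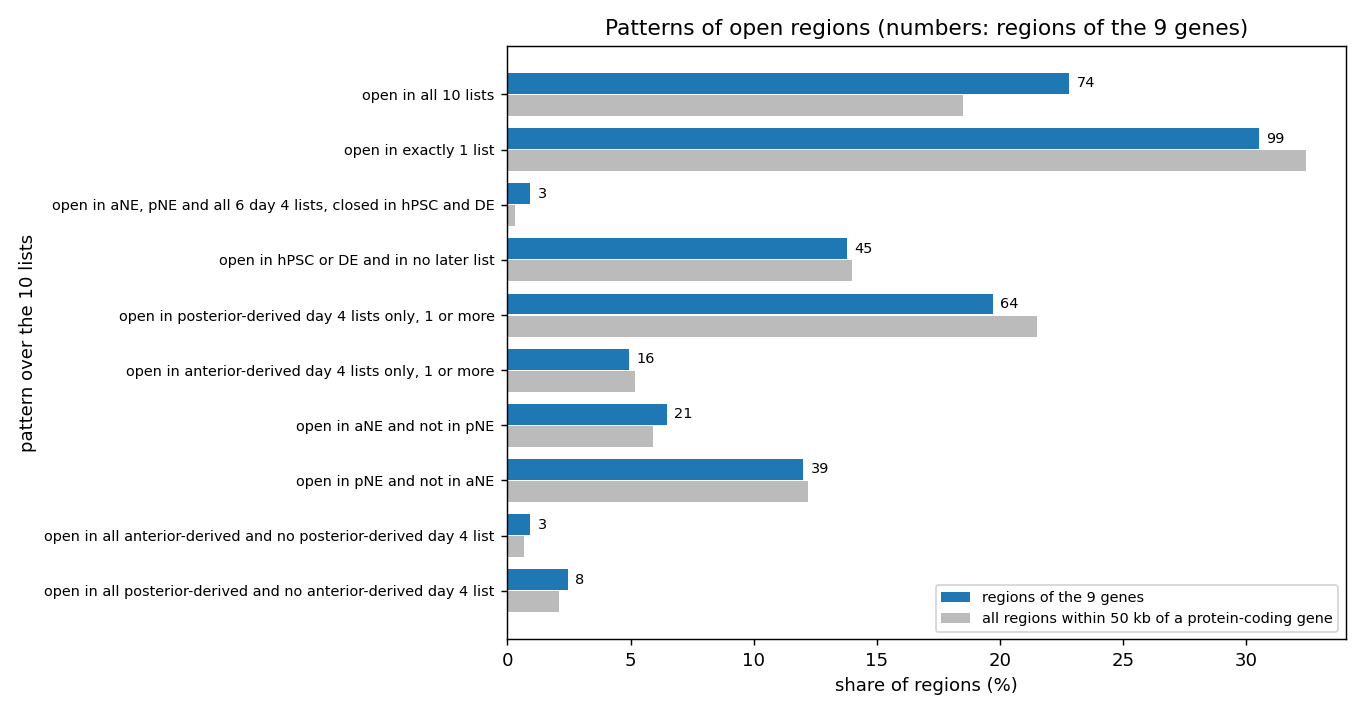
Share of regions (%, horizontal axis) with each pattern over the 10 lists (vertical axis) for the 325 regions of the 9 genes (blue, with their number) and for all 357053 regions within 50 kb of a protein-coding gene (grey). The blue and grey bars are close in every pattern, and the widest gap is that of regions open in all 10 lists (22.8% and 18.5%).

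The day 1 and day 2 steps asked how the windows as wholes changed with the media. With 1.5-fold on the scaled covered bases as the limit, 0 of the 9 genes passed from hPSC to DE, where 1.39% of 19006 protein-coding genes did. From DE to aNE 0 passed (1.58% of all genes), and from DE to pNE 0 passed (3.86% of all genes). All 9 genes passed the filter of 1000 bp on average. The sizes nearest to the limit were those of the inhibitors in pNE. FRZB had 70.9 bp per Mb in DE and 102 in pNE, a ratio of 1.43, and SFRP2 had 76.5 and 101, a ratio of 1.32. From DE to aNE all 9 scaled values were higher in aNE, as were those of 67.8% of all genes, with a median log2 ratio of 0.20 against 0.09 over all genes. The direction turned with the scaling: in unscaled covered bases 2 of the 9 were higher in aNE and 7 were lower, where 10.3% of all genes were higher. SFRP2 (6688 and 6895 bp, scaled log2 0.36) and WNT1 (10324 and 10567 bp, scaled log2 0.35) were higher on both scales.

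Between aNE and pNE, the groups grown with C59 and with XAV939, 0 of 9 genes passed, against 1.72% of all genes. The median log2 ratio of pNE to aNE was -0.20 for the 9 genes and -0.12 for all genes. WNT5A was lowest relative to aNE, with 106 bp per Mb in aNE and 84.9 in pNE (log2 -0.32), followed by WNT8B (log2 -0.30) and DKK1 (log2 -0.26). FRZB was the highest, at 84 and 102 bp per Mb (log2 0.28). The groups differ in C59, XAV939, TTNPB and FGF2 at once, so the parts of these agents cannot be told apart.

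On day 4 the telencephalon and hindbrain media were compared within each origin. In the anterior-derived lists 0 of 9 genes passed (3.59% of all genes), with WNT3A the lowest in hindbrain relative to telencephalon medium at log2 -0.25. In the posterior-derived lists 0 of 9 passed (3.52% of all genes). There SFRP2 had 115 bp per Mb in pNE_T and 82.2 in pNE_H (log2 -0.49), and WNT3A had 127 and 102 (log2 -0.31). Unscaled, both were higher in pNE_H: SFRP2 had 9792 bp in pNE_T and 10116 bp in pNE_H, and WNT3A had 10844 and 12693 bp. All 9 genes were higher in pNE_H without scaling, as were 95.7% of all genes, and 2 of 9 were with it, against 23.1%. DKK1 and FRZB were higher in the hindbrain medium in both origins, scaled and unscaled. The scaled log2 ratios were 0.13 (anterior) and 0.23 (posterior) for DKK1 and 0.06 and 0.2 for FRZB, all within the limit. These posterior values involve the long pNE_H list. Without scaling, DKK1 (2551 bp in pNE_T and 4654 bp in pNE_H) and FRZB (6083 and 10444 bp) passed the limit as higher in pNE_H.

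By origin, the scaled values of the 3 anterior-derived lists lay wholly above those of the 3 posterior-derived lists for WNT1, WNT3A and WNT8B. This is 3 of 9, where 28.5% of all genes showed the same, and the reverse was found for 0 of 9 against 5.04% of all genes. WNT1 had 130 to 135 bp per Mb in the anterior-derived and 110 to 119 in the posterior-derived lists. WNT3A had 131 to 155 and 102 to 127, and WNT8B had 83.2 to 97.9 and 68.1 to 82.5, so the WNT8B ranges nearly touched. The scaling decides which genes are separated. In unscaled covered bases SFRP1 and SFRP2 lay wholly higher in the posterior-derived lists, and no gene lay higher in the anterior-derived ones.

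Other genes of the pathway were counted from a list of 49: 14 more WNT ligands, 10 more secreted inhibitors, 15 receptors and co-receptors, 4 genes of secretion and inhibitor targets, and 6 agonist genes. All 49 were matched and passed the filter, and WNT10B lies in the WNT1 window, so their peaks are shared. Between aNE and pNE, 1 of 49 passed 1.5-fold as higher in pNE and 0 as lower, a share near the 1.72% of all genes past the limit in either direction. The gene was LGR5, a receptor for R-spondins, which strengthen WNT signals. Its window held 4246, 5773, 4510, 8124, 7180, 8280, 7869, 7771, 7959 and 12038 bp, and the scaled ratio of pNE to aNE was 1.51. The lists of day 0 to aNE were low and pNE and all day 4 lists were high for LGR5. Between the telencephalon and hindbrain media 0 of 49 passed in either direction in both origins, where 3.59% (anterior) and 3.52% (posterior) of all genes did. The genes of the inhibitor targets, named outside the rule, stayed within the limit between aNE and pNE. The scaled ratio of pNE to aNE was 1.04 for PORCN, the target of C59, and 1.19 for TNKS and 0.852 for TNKS2, the targets of XAV939.

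For each gene, the protein-coding gene on another chromosome with the most similar scaled covered bases was found over the 10 lists by Pearson correlation. Over between 17070 and 18580 genes compared, these were SPDYE5 for WNT3A (0.985), SLC2A12 for WNT1 (0.972), DUSP10 for WNT8B (0.971) and OR8B12 for WNT5A (0.957). For the remaining genes they were PDE5A for SFRP1 (0.949), NEDD9 for DKK1 (0.934), CEP97 for SFRP2 (0.93), VPS37A for WNT7B (0.926) and ING3 for FRZB (0.914). Each value is the highest of many over 10 points that share list size, so it is a description of these lists.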

How the data were processed

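OmniATAC-seq libraries from 30 samples in 10 groups were summarised by the authors as 1 peak list per group. The deposited lists hold the chromosome, start and end of each peak in 3 columns and no score. Per the submitters' processing notes, Bowtie2, MACS2, bedtools, deepTools, FastQC, featureCounts and build hg38 were used. Not given in the sources used here are their roles, the peak threshold and how 3 libraries became 1 list, and thresholds that differed between lists would move every count.

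Only chromosomes 1 to 22, X and Y entered. Peaks were intersected with gene windows and merged across lists at 1 bp overlap with Python 3.11.15, numpy 2.4.6 and pandas 2.3.3. Gene positions and promoter sequences are from RefSeq GRCh38.p14. Genes with under 1000 bp of peaks in the mean of the lists were left out, which kept 19006. The code was tested on simulated lists. The members, gene lists and tests were chosen with earlier results of these data known. Named regions were the one over each start, the widest open in all day 4 lists of 1 origin and none of the other, and the widest open in only 1 of aNE and pNE. Regions of 3 other kinds were chosen after their values were seen: those opening on day 2, single regions at WNT1, WNT5A, WNT8B, SFRP1 and DKK1, and those with opposite responses to the media. Other pathway genes were named past 1.5-fold, the first 3 in each direction. Alternatives were no scaling, numbers of peaks, windows of 10 and 100 kb, 2-fold, 50% coverage of a region, and lists of the widest peaks. Exons and peak sequences were not used here.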

Additional observations from a re-analysis of the deposited data

Results flagged for a closer look

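At 4 of the 325 regions (1.23%, against 2.37% of the 357053 regions near protein-coding genes) the telencephalon and hindbrain media went with opposite states in the 2 origins: the region was open in aNE_T and closed in aNE_H, and closed in pNE_T and open in pNE_H. The difference between origins was not tested, because each list stands alone.

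Before WNT3A, the region on chromosome 1 from 227966682 to 227967300 held 125 bp in aNE_T, 0 in aNE_H, 0 in pNE_T and 416 bp in pNE_H. Inside SFRP1, the region on chromosome 8 from 41273838 to 41274278 held 376, 0, 0 and 202 bp in the same order. Before SFRP2, the region on chromosome 4 from 153798543 to 153798763 held 150, 0, 0 and 153 bp, and it was open in no other list. Before FRZB, the region on chromosome 2 from 182888640 to 182889173 held 271, 0, 0 and 517 bp, with 345 bp in pNE.

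Most of these patterns were lost under alternatives chosen after seeing the data. With the widest 167792 peaks of each list 1 of the 4 kept the opposite states (FRZB), with the widest 50% 0 did, and where peaks had to cover 50% of the region 2 did (SFRP2 and FRZB). At WNT3A the peak in aNE_T was lost under all 3, and at SFRP1 the one in pNE_H.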

How the results depend on the processing

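Of the recomputed counts 42 stayed within 1.5 times the main count, 8 moved and 3 changed sides. Those that stayed include the 2-fold limit in each comparison of lists. It could only give 0 there, since 1.5-fold gave 0, so it tells nothing of how the counts depend on the limit. The counts of genes past the limit were 0 in each main comparison. With the widest 50% of peaks, 1 gene passed from hPSC to DE (SFRP1 higher, 1.57-fold) and 1 from DE to pNE (SFRP2 higher, 1.53-fold). With the widest 167792 peaks of each list, 1 passed from DE to pNE (FRZB higher, 1.55-fold). By number of peaks, 1 passed between aNE and pNE (DKK1 lower in pNE, with 3 against 4 peaks) and 3 between the telencephalon and hindbrain media in the anterior-derived lists (WNT7B and DKK1 higher, WNT8B lower in hindbrain medium). Unscaled, 2 passed in the posterior-derived lists (DKK1 and FRZB higher in pNE_H). Genes separated by origin were 3, all higher in the anterior-derived lists. This changed sides unscaled, with 2 (SFRP1 and SFRP2), and by number of peaks, with 1 (SFRP2), all higher in the posterior-derived lists. Which genes were separated also changed with the window and with the widest peaks, though their number stayed within 1.5 times. Regions open on 1 side of aNE and pNE were 60, with more on the pNE side (39 against 21). They were 35 with windows of 10 kb, 31 with the widest 50% of peaks, and 55 with the widest 167792 peaks, where the aNE side had more (29 against 26). The causes were not tested. No paired analysis was possible because each group has 1 peak list and no value per library, so no replicate could be left out either. Of the other values, mostly the number of lists with a named region open, 52 stayed and 24 moved. Where peaks had to cover 50% of a region, the WNT1 start was open in 5 of the 10 lists. Regions open in all posterior-derived and no anterior-derived day 4 list were 8, and 3 with windows of 10 kb. Depth is unknown, so a closed region was not detectable in that list, and peaks narrower than 109 bp occur in none of the lists.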
